A study of Sus scrofa with 15 samples.

Results

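Regulator of G-protein signalling (RGS) genes were followed in porcine natural killer (NK) cells from blood and liver. The members were chosen by symbol: *RGS1*, *RGS2*, *RGS3*, *RGS10*, *RGS14*, *RGS16*, *RGS18* and *RGS19*, and all 8 were found among the 29886 genes of the count table. RNA was sequenced from 3 NK cell populations of the same 5 pigs, giving 15 libraries. The pigs were 6 months old, and the labels give no treatment, genotype or strain. Blood CD8α-high NK cells (labelled Blood NK) are the conventional NK (cNK) cells, liver CD8α-high NK cells are labelled Conventional liver NK, and liver CD8α-dim NK cells are labelled Liver resident NK (lrNK). Blood cells came from the mononuclear fraction and liver cells from a final flush through the portal vein. Magnetic beads removed CD3+ and CD172a+ cells before CD3- CD172a- CD8α+ cells were sorted by FACS.

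RGS proteins are brakes on signalling through G protein-coupled receptors. When a chemokine or lipid mediator engages its receptor, the G alpha subunit binds GTP and signals until the GTP is hydrolysed, and the RGS domain speeds up that hydrolysis. In lymphocytes these receptors steer migration towards chemokines and sphingosine-1-phosphate (S1P), and *RGS1* is known as a gene of high expression in tissue-resident lymphocytes.

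Levels are given as CPM, counts per 1000000 counts of the library after scaling by edgeR's TMM factors. Because the libraries were read from the 3′ end of transcripts, changes are compared for the same gene between populations. Where counts of different genes are set side by side, they are counts of 3′ ends within a library, given as a description. Library totals ran from 2003499 to 5680221 counts. The 11 NK cell markers were all measured and summed to between 4516.5 and 7809.4 CPM in every library. That sum hides differences: between lrNK cells and blood 6 of the 11 rose and 3 fell at an adjusted p under 0.05. Of all genes tested 18.2% passed. *GNLY* fell from a mean of 1432.7 to 21.4 CPM and *TBX21* from 1138.2 to 194.4 CPM, while *KLRB1* rose from 273.5 to 1381.6 CPM and *GZMA* from 302.8 to 1549.7 CPM. The 9 T cell markers in the table summed to 931.9 to 1448.8 CPM in blood, 972.9 to 1396.8 CPM in liver CD8α-high cells and 439.4 to 944.9 CPM in lrNK cells. Of these *CD3E* did not exceed 27.9 CPM, and *CD4*, *CD5* and *CD28* were at 0. The 12 monocyte and macrophage markers summed to at most 8.11 CPM in blood, 3.26 CPM in liver CD8α-high cells and 25.5 CPM in lrNK cells. That highest sum was in the lrNK library of pig 4, and the lysozyme gene *LYZ* of this list rose in lrNK against liver CD8α-high cells by 4.57 on the log2 scale (adjusted p = 0.0271). In a fit with the pig as a term the value was 4.63 and missed the threshold (adjusted p = 0.0512). Liver CD8α-high libraries held at most 3 counts of *LYZ*, so the size of both values depends on the prior count. The 5 markers of neutrophils summed to at most 0.811 CPM, the 9 of hepatocytes to at most 9.70 CPM and the 8 of endothelium to at most 14.1 CPM. The 6 erythroid markers summed to 322.1 CPM in blood of pig 4, 58.5 CPM in liver CD8α-high cells of pig 1 and at most 24.0 CPM in the other 13 libraries. That blood library also held the highest *RGS2* and *RGS18* levels of its population, and the part of erythroid RNA in them was not tested. *CD3G* was counted at a mean of 861.9 CPM in blood, 821.3 CPM in liver CD8α-high cells and 287.8 CPM in lrNK cells, in cells sorted as CD3-. *CD247*, which NK cells also express, rose from 283.6 CPM in blood to 413.6 CPM (adjusted p = 0.0379). B cell markers were higher in the lrNK libraries: 9 of 10 listed genes were in the table, the 8 tested rose against both other populations, and *CD79A* was at 0 in all libraries. They summed to 32.3 to 204.9 CPM in blood, 21.9 to 77.4 CPM in liver CD8α-high cells and 525.8 to 1292.4 CPM in lrNK cells. Among the liver CD8α-high libraries that of pig 1 held the highest level of *EOMES*, 216.7 CPM, whereas the other 4 ranged from 14.0 to 62.2 CPM and the lrNK libraries from 439.9 to 809.6 CPM. The lrNK library of pig 3 was the least like those of its own population: set against each of the other 4, its counts gave a chi-square of 30.1 to 46.7 per degree of freedom. In bulk RNA of a sorted population, fewer cells of a type and less RNA per cell cannot be told apart.

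The filter on low counts kept 7 of the 8 RGS genes, all but *RGS16*. In lrNK cells against cNK cells of blood, 2 of the 7 rose (*RGS1* and *RGS14*) and 1 fell (*RGS19*). Of all 10939 genes tested 18.2% passed the same test, 8.62% higher and 9.60% lower, and 29.5% had an unadjusted p under 0.05. Against liver CD8α-high cells the same 2 rose, and *RGS19* and *RGS2* fell (DESeq2 called 3 of the 7), while 14.6% of all genes passed, 6.96% higher and 7.68% lower, and 24.9% had an unadjusted p under 0.05. These shares over all genes are those of edgeR, and none is given for DESeq2. Between the CD8α-high populations of liver and blood, edgeR called 0 of the 7, where 0.0640% of all genes passed. The median log2 difference of the 7 was 0.50 between lrNK and blood, 0.11 between liver CD8α-high and blood and -0.02 between lrNK and liver CD8α-high, beside 0.01, -0.02 and 0.02 over all genes tested.

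**Figure D1:**
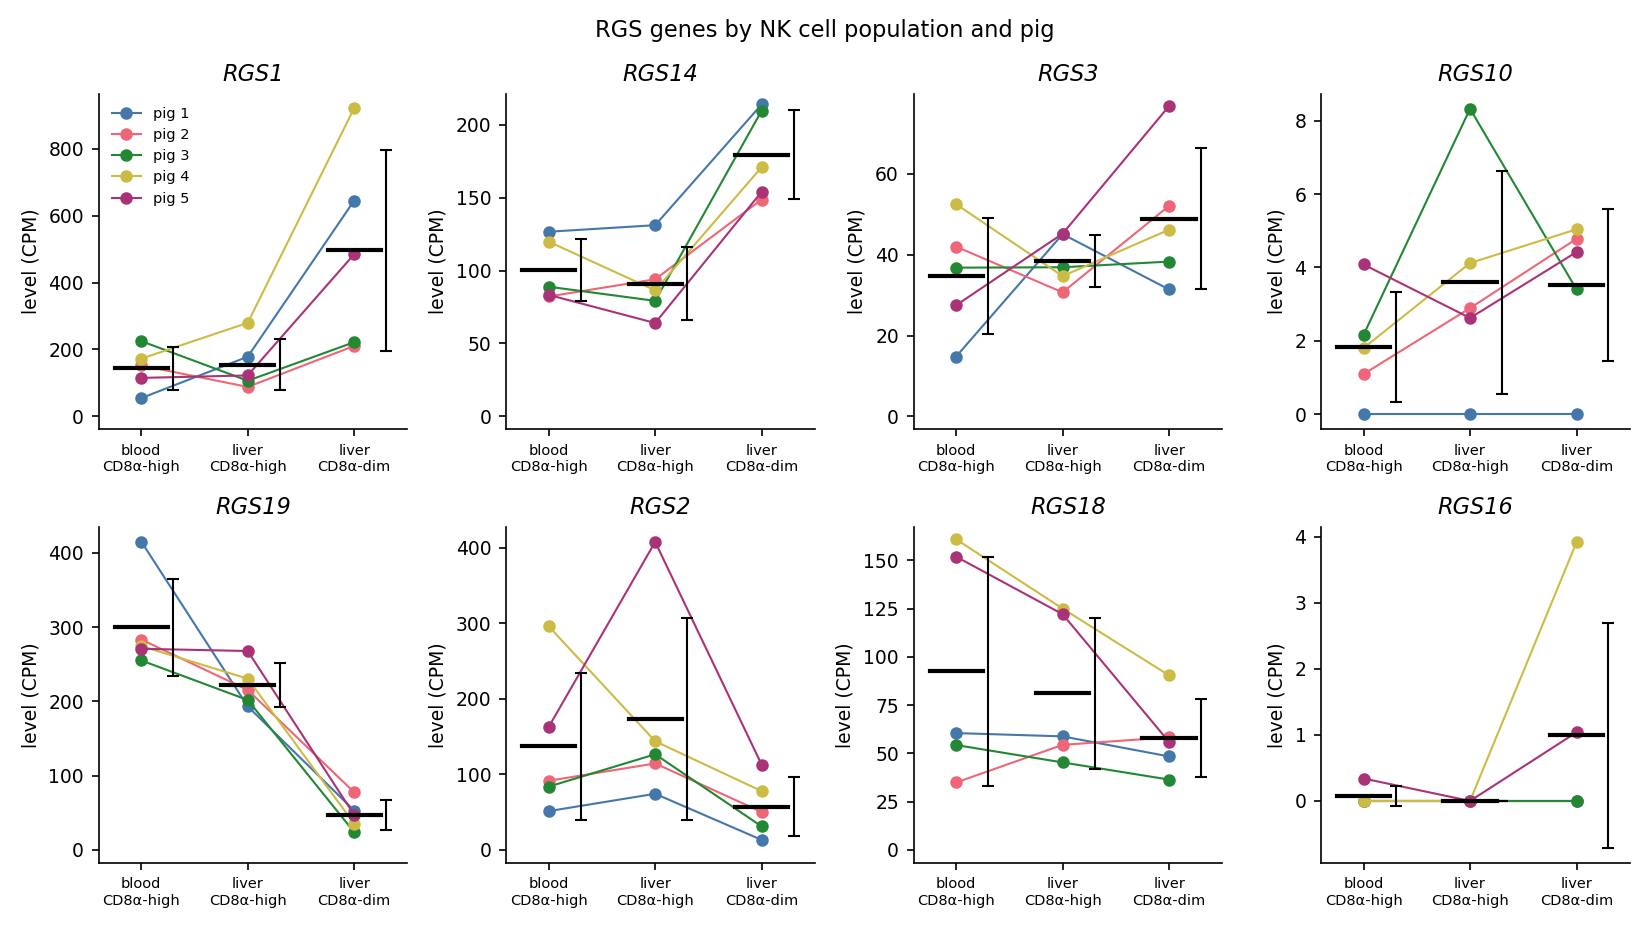
Level (CPM, linear axis) of the 8 RGS genes in each of the 3 NK cell populations. Each coloured point is a library and a line joins the libraries of a pig, the thick bar is the mean of 5 pigs and the error bar the SD, drawn beside it. *RGS19* is lower in all 5 lrNK libraries (23.8 to 77.5 CPM) than in any other library, *RGS14* is higher (148.7 to 213.9 CPM), and *RGS10* is at 0 in pig 1.

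*RGS1* encodes a small RGS protein that restrains migration towards chemokines and S1P, and in the Sscrofa11.1 assembly its gene spans positions 1147439 to 1151733 of chromosome 10. In blood the libraries of pigs 1 to 5 held 54.5, 152.1, 224.9, 172.4 and 114.9 CPM. Liver CD8α-high cells of the same pigs held 178.2, 88, 106.4, 279.5 and 122.3 CPM. In lrNK cells the values were 645.0, 210.4, 221.7, 921.5 and 484.7 CPM. The lrNK libraries of pigs 1, 4 and 5 were above all libraries of the other populations, whereas those of pigs 2 and 3 lay within the range of blood, so the groups overlapped. Within pigs, lrNK cells were above liver CD8α-high cells in 5 of 5 and above blood in 4 of 5, with pig 3 nearly level. Blood averaged 143.8 ± 63.8 CPM (SD, n = 5), whereas the lrNK libraries averaged 496.7 ± 300.1 CPM. *RGS1* rose 3.46-fold between them, with a log2 fold change of 1.79 ± 0.41 (SE, 95% interval 0.95 to 2.63, adjusted p = 0.00314). Against the liver CD8α-high mean of 154.9 ± 77.4 CPM it rose 3.21-fold, a log2 fold change of 1.68 ± 0.40 (adjusted p = 0.00593). Its spread between lrNK libraries was wide, with a coefficient of variation of 60.4%. The order of the pigs from the highest to the lowest level was 4, 1, 5, 3, 2 in both liver populations and 3, 4, 2, 5, 1 in blood.

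B cells are known to express *RGS1*, so the values stand beside the B cell markers. In lrNK libraries of pigs 1 to 5 these markers summed to 633.4, 1292.4, 694.8, 1256.6 and 525.8 CPM. The highest B cell sum fell to pig 2, whose lrNK level of *RGS1* was the lowest of the 5, and the second highest to pig 4, whose level was the highest. *RGS13*, an RGS gene of germinal centre B cells, was counted 0 to 4 times per lrNK library. The part of B cell transcripts in the *RGS1* and *RGS14* results was not tested. *RGS1* is also known as a gene induced by activation, so immediate early genes are given beside it. The 25 immediate early genes listed summed to 1527.6 to 1635.6 CPM in blood, 2049.9 to 2289.4 CPM in liver CD8α-high cells and 1553.5 to 1907.3 CPM in lrNK cells. Of 20 immediate early genes tested, 6 rose and 5 fell in lrNK cells against blood, where 8.62% of all genes rose and 9.60% fell. *EGR3* (log2 fold change 4.33) and *EGR1* (3.44) were among those that rose and *NR4A3* (-5.27) among those that fell. *EGR3* averaged 3.25 CPM in blood, 36.8 CPM in liver CD8α-high cells and 63.6 CPM in the lrNK libraries, and *EGR1* averaged 2.27, 8.60 and 24.6 CPM. *NR4A3* averaged 149.9, 221.2 and 4.12 CPM in the same order. When lrNK cells were set against liver CD8α-high cells, 1 immediate early gene rose and 5 fell, where 6.96% of all genes rose and 7.68% fell. Their part in the *RGS1* result was not tested.

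*RGS14* encodes a larger member that joins the RGS domain to Ras-binding domains and to a GoLoco motif that holds G alpha i in its GDP form. Its gene lies on chromosome 2, from 80574411 to 80589998. Blood libraries of pigs 1 to 5 held 126.6, 82.2, 88.9, 119.8 and 83.3 CPM, and liver CD8α-high libraries held 131.1, 94.0, 79.2, 86.4 and 64.0 CPM. The lrNK libraries held 213.9, 148.7, 209.6, 170.9 and 154.0 CPM. All 5 lrNK libraries were above all 10 others, and in each population pig 1 had the highest level. Groups did not overlap in 13.5% of all genes between lrNK cells and blood and in 11.9% between the liver populations. *RGS14* averaged 100.2 ± 21.3 CPM in blood and 179.4 ± 30.7 CPM in the lrNK libraries. It rose 1.79-fold, a log2 fold change of 0.84 ± 0.20 (95% interval 0.43 to 1.26, adjusted p = 0.00458). Against liver CD8α-high cells, at 90.9 ± 25 CPM, the log2 fold change was 0.98 ± 0.20 (adjusted p = 0.00141).

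*RGS19*, also known as GAIP, encodes an RGS protein that acts on G alpha i subunits and carries a cysteine string that anchors it to membranes. Its gene lies on chromosome 17, from 62889207 to 62896149. In blood the level was 415.4, 283.4, 255.2, 274.6 and 270.9 CPM in pigs 1 to 5, and in liver CD8α-high cells it was 193.3, 215.4, 201.9, 230.6 and 267.9 CPM. In lrNK cells it was 53.0, 77.5, 23.8, 35.2 and 47.1 CPM. The highest lrNK library was thus below the lowest of the other 10, and the blood library of pig 1 stood above the other 4 of blood. *RGS19* averaged 299.9 ± 65.4 CPM in blood but 47.3 ± 20.3 CPM in the lrNK libraries. It fell 6.35-fold, a log2 fold change of -2.67 ± 0.24 (95% interval -3.17 to -2.16, adjusted p = 7.71e-08). From liver CD8α-high cells (221.8 ± 29.4 CPM) it fell 4.70-fold, a log2 fold change of -2.23 ± 0.24 (adjusted p = 8.50e-07).

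*RGS2* encodes a small member that acts mainly on G alpha q, and its gene lies on chromosome 10, from 936836 to 940083. Blood libraries of pigs 1 to 5 held 51.3, 91.5, 83.8, 296.2 and 162.8 CPM. In liver CD8α-high cells the values were 74.3, 114.5, 126.6, 143.9 and 408.0 CPM, and in lrNK cells 13.2, 50.2, 31.1, 77.8 and 112.9 CPM. The populations overlapped, and pigs 4 and 5 had the highest levels and pig 1 the lowest in each population. Within each pig, lrNK cells were below both CD8α-high populations. Against liver CD8α-high cells *RGS2* fell 3.01-fold, a log2 fold change of -1.59 ± 0.52 (95% interval -2.67 to -0.51, adjusted p = 0.0432). That call was lost with DESeq2 (-1.60, adjusted p = 0.0588), with robust dispersion (-1.59, adjusted p = 0.129) and in a fit of both populations alone (-1.60, adjusted p = 0.0507). It was also lost when pig 2, 3, 4 or 5 was left out (log2 fold change -1.79 to -1.43, adjusted p = 0.0522 to 0.105). Without the liver CD8α-high library of pig 5 alone it was -1.0 (adjusted p = 0.227), and it was also lost without the lrNK library of pig 3 (-1.43, adjusted p = 0.0773) or of pig 4 (-1.72, adjusted p = 0.0528). Against blood the log2 fold change of -1.24 ± 0.52 did not pass the test (adjusted p = 0.105). With a term for the pig (a block) in the fit, it was -1.35 ± 0.26 and passed (adjusted p = 0.00119), where 19.4% of all genes passed. In that fit the change against liver CD8α-high cells was -1.69 (adjusted p = 0.000160), where 15.7% of all genes passed.

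**Figure D2:**
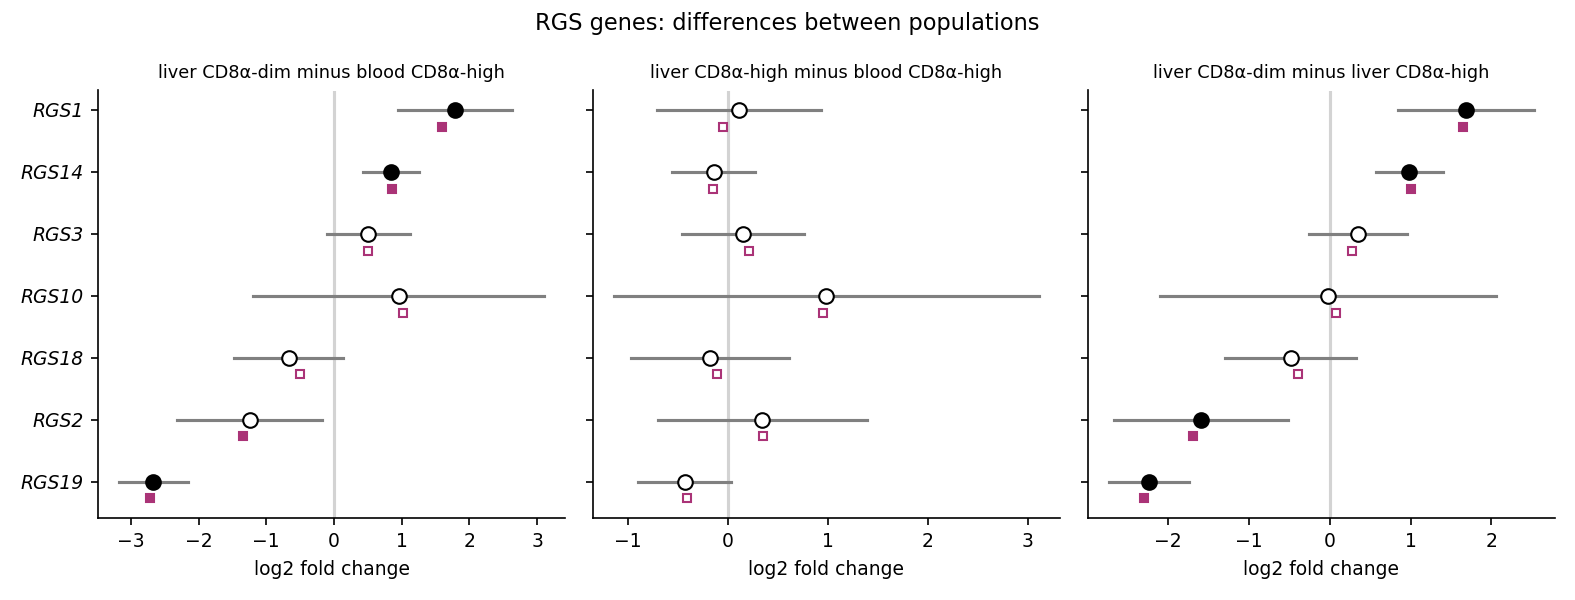
Log2 fold change of the 7 RGS genes tested in each comparison. Black circles with 95% intervals are from the edgeR fit without block, squares from the fit blocked by pig, and filled symbols have an adjusted p under 0.05. *RGS2* is filled between lrNK cells and blood only with the block, and no symbol is filled between the CD8α-high populations.

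*RGS18*, *RGS3* and *RGS10* did not pass the test in any comparison, and *RGS16* was too low to be tested. A missed threshold does not show that levels were alike, so the intervals are given. *RGS18*, known best from platelets and other blood cells, lies on chromosome 10, from 1520866 to 1539776. Its level was 60.5, 34.9, 54.3, 160.9 and 151.9 CPM in blood of pigs 1 to 5, 58.8, 54.4, 45.3, 125.0 and 122.1 CPM in liver CD8α-high cells and 48.4, 58.3, 36.4, 90.4 and 55.9 CPM in lrNK cells. Pig 4 was highest in each population, and lrNK cells were below blood in 4 of 5 pigs, with a log2 fold change of -0.67 (95% interval -1.47 to 0.14, adjusted p = 0.270). Platelet and megakaryocyte markers summed to 82.0 to 113.5 CPM in blood, 89.8 to 122.8 CPM in liver CD8α-high cells and 81.1 to 177.6 CPM in lrNK cells. Most of this was *GP9* (65.6 to 177.6 CPM over all libraries), whereas the platelet chemokine gene *PPBP* was counted 0 to 9 times per library. Their part in the *RGS18* values was not tested. The span of *RGS18* lies wholly within that of a long non-coding RNA gene, LOC102166310, which was counted 102 times in all libraries together, against 4081 for *RGS18*.

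*RGS3*, whose product acts on both G alpha i and G alpha q, lies on chromosome 1, from 254078618 to 254211805. Blood libraries of pigs 1 to 5 held 14.8, 42.0, 36.8, 52.5 and 27.5 CPM, liver CD8α-high libraries 45.1, 30.7, 36.9, 34.7 and 45.2 CPM, and lrNK libraries 31.4, 52.1, 38.3, 46.2 and 76.8 CPM. The 3 populations overlapped throughout. Between lrNK cells and blood the log2 fold change was 0.50 (95% interval -0.11 to 1.12, adjusted p = 0.279), and lrNK cells were higher in 4 of 5 pigs.

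*RGS10*, a small member acting on G alpha i, lies on chromosome 14, from 129386717 to 129424150. It was counted 0, 4, 8, 5 and 12 times in blood of pigs 1 to 5, 0, 11, 30, 24 and 11 times in liver CD8α-high cells and 0, 10, 7, 18 and 17 times in lrNK cells. All 3 libraries of pig 1 were at 0, and all 12 libraries of the other pigs had 4 or more counts. In pig 1, 3 counts would have been 0.332 CPM of the 9044160 counts of its 3 libraries together. The intervals of its log2 fold changes were wide, -1.19 to 3.10 between lrNK cells and blood. *RGS16*, a gene induced in activated lymphocytes on chromosome 9 from 123913179 to 123919119, was counted 14 times in the lrNK library of pig 4, 4 times in that of pig 5 and 1 time in blood of pig 5. The other 12 libraries were at 0, where 3 counts would be a level of 0.515 to 1.46 CPM per library.

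The comparison of the CD8α-high populations asked whether NK cells of this phenotype differ between liver and blood. No RGS gene was called by edgeR, 0 of the 7 had an unadjusted p under 0.05, and DESeq2 called 0. Over all genes edgeR called 7 and DESeq2 25, and 547 (5.00%) had an unadjusted p under 0.05. The smallest unadjusted p was that of *RGS19* (0.0653, adjusted p = 1.00): liver was below blood in 5 of 5 pigs, with a log2 fold change of -0.43 (95% interval -0.90 to 0.03). For *RGS1* the log2 fold change was 0.11 (95% interval -0.71 to 0.93), and within pigs it ran from -1.08 in pig 3 to 1.70 in pig 1. *RGS14* differed by -0.14 (95% interval -0.56 to 0.27) and *RGS2* by 0.34 (95% interval -0.70 to 1.39).

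The RGS genes were also described by their share of the counts of all 8 in a library, which is free of scaling between libraries. These shares rest on the same counts as the tests above and are no further evidence. *RGS1* held 7.54 to 30.1% of these counts in blood, 11.8 to 30.9% in liver CD8α-high cells and 34.9 to 68.2% in lrNK cells. *RGS19* held 25.5 to 57.4% in blood, 25.5 to 35.9% in liver CD8α-high cells and 2.61 to 12.9% in lrNK cells. The shares of both in lrNK cells lay outside the ranges of the other populations. There were 0.131 to 0.881 *RGS1* counts per *RGS19* count in blood (median 0.537), 0.409 to 1.21 in liver CD8α-high cells (median 0.527) and 2.72 to 26.1 in lrNK cells (median 10.3). The lrNK value of pig 2 was the lowest of its population and that of pig 4 the highest. The summed level of the 8 genes, in contrast, overlapped: 687.3 to 1078.2 CPM in blood, 599.9 to 1032.1 CPM in liver CD8α-high cells and 564.3 to 1350.9 CPM in lrNK cells.

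**Figure D3:**
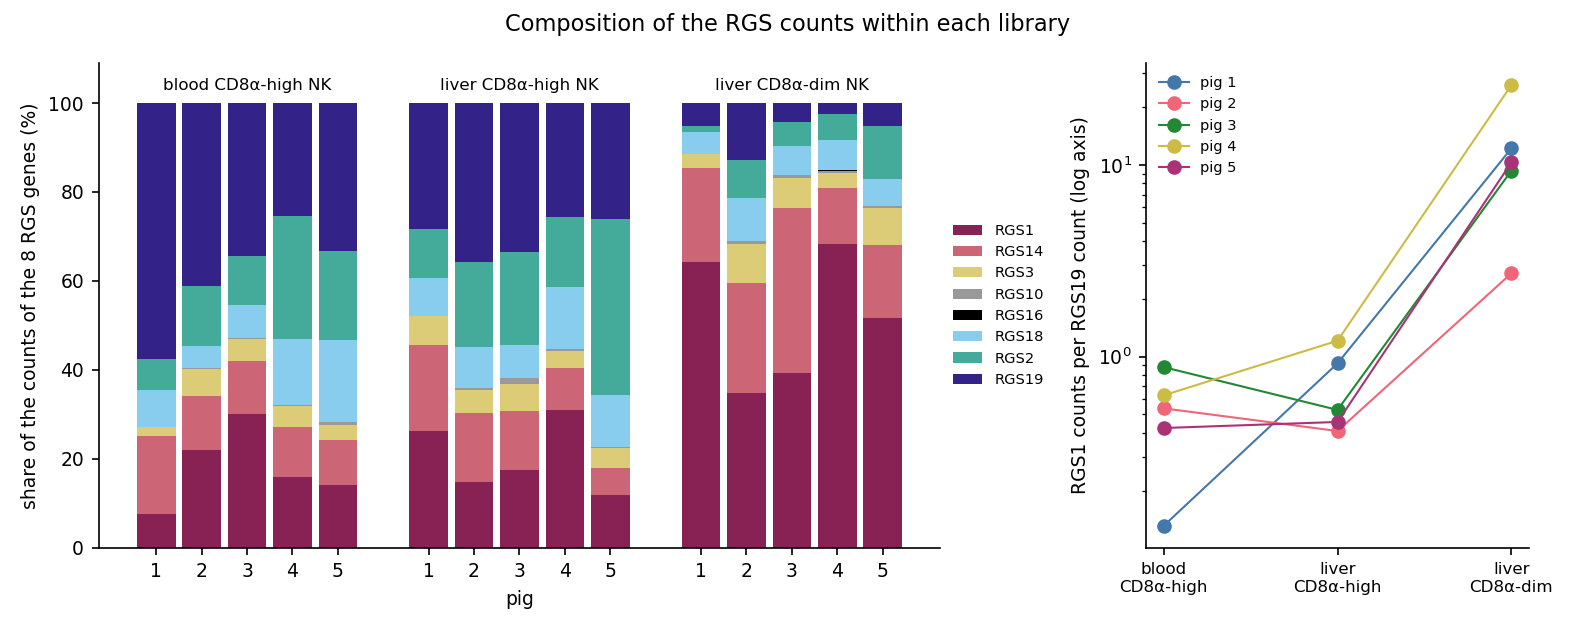
Left, share (%) of each gene in the counts of the 8 RGS genes, a bar for each of the 15 libraries, grouped by population. Right, *RGS1* counts per *RGS19* count on a log axis, a point per library and a line per pig, which is at most 1.21 in CD8α-high libraries and at least 2.72 in lrNK libraries.

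*RGS2*, *RGS1* and *RGS18* lie on chromosome 10 within a stretch that also holds *RGS13* and *RGS21*, and no further gene of the annotation used lies wholly inside it. *RGS13* and *RGS21* were counted 17 and 6 times in all 15 libraries together. The 3 expressed neighbours differed in direction between lrNK and liver CD8α-high cells: *RGS1* rose, *RGS2* fell, and *RGS18* had a log2 fold change of -0.48 (adjusted p = 0.492).

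Of the 14 other RGS genes listed, *RGS6* alone was high enough to be tested. It encodes a member that pairs with the G beta 5 subunit and is best known from neurons and heart. *RGS6* was counted 0, 2, 11, 2 and 6 times in blood of pigs 1 to 5, 8, 0, 0, 0 and 0 times in liver CD8α-high cells and 35, 2, 73, 11 and 55 times in lrNK cells. It rose in lrNK cells against liver CD8α-high cells (log2 fold change 4.74 ± 1.28, adjusted p = 0.0138). The size of that fold rests on the liver CD8α-high library of pig 1, the only one of its population above 0: without it the fitted value was 8.55, which depends on the prior count. Against blood it rose by 3.40 ± 1.16 on the log2 scale (adjusted p = 0.0466), but in the fit blocked by pig the value was 2.85 and missed the threshold (adjusted p = 0.0931). The call against blood was lost without any one pig (3.06 to 3.59, adjusted p = 0.0703 to 0.111), and that against liver CD8α-high cells without pig 3 (3.7, adjusted p = 0.0940) or pig 5 (4.36, adjusted p = 0.0823). Groups overlapped through pig 2, with 2 counts in lrNK cells. The remaining 13 were counted at most 26 times in all libraries together, and *RGS5*, *RGS7*, *RGS9* and *RGS11* were at 0.

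For each of the 4 called genes among the 8, the 3 genes with the most similar pattern were named by Pearson's correlation of log2 CPM over the 15 libraries, among 7141 genes. Libraries share pigs and populations, so these values describe the pattern only. For *RGS19* they were *SIGIRR* (0.989), *RAB22A* (0.985) and *LRRC42* (0.978). *TNFAIP8* (0.916), *CD86* (0.904) and *CRYZL1* (0.893) were most like *RGS1*, and *PSMB9* (0.931), *IL18R1* (0.930) and LOC110255822 (0.925) were most like *RGS14*. *PCNP* (0.893), *IL12RB2* (0.866) and *HTRA1* (0.863) were most like *RGS2*.

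The other parts of the pathway were described from lists of genes by role, each read against the 18.2% of all genes that passed between lrNK cells and blood. Among G alpha subunits, the substrates of RGS proteins, 9 of 13 were tested and edgeR called 2, both lower. DESeq2 called 5 of the 9, but 18.2% is edgeR's share and none is given here for DESeq2. In edgeR 6 had an unadjusted p under 0.05, as did 29.5% of all genes. *GNAI2*, the main G alpha i subunit of lymphocytes, was at 530.5 to 777.3 CPM in blood and 280.1 to 398.3 CPM in lrNK cells without overlap (log2 fold change -0.78 ± 0.14, adjusted p = 0.000382). *GNAO1* fell by 2.54 on the log2 scale (adjusted p = 0.0431). In the fit blocked by pig 4 subunits fell, the others being *GNA15* (-1.30, adjusted p = 0.0413) and *GNAS* (-0.59, adjusted p = 0.0225). Of 6 G beta and gamma subunits tested, *GNG2* fell by 1.37 on the log2 scale (adjusted p = 2.43e-06), its mean being 411.5 ± 55.9 CPM in blood but 159.6 ± 30.3 CPM in the lrNK libraries. Among 6 G alpha regulators and RGS partners tested, edgeR and DESeq2 called 0 and 1 had an unadjusted p under 0.05. Among 7 other genes with an RGS domain, *AXIN2*, a scaffold of the β-catenin destruction complex, fell from 64.5 ± 7.29 to 1.08 ± 1.82 CPM (adjusted p = 2.58e-08).

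Receptor kinases and arrestins, which silence activated receptors, differed in both directions: of 7 tested, 1 rose and 3 fell between lrNK cells and blood. *GRK3* averaged 8.03 ± 8.11 CPM in blood but 85.1 ± 36.2 CPM in the lrNK libraries and rose by 3.37 on the log2 scale (adjusted p = 0.00173). *GRK5* fell from 80.5 ± 12.3 to 17.8 ± 4.60 CPM (adjusted p = 1.49e-07), *ARRB2* from 120.1 ± 22.5 to 21.4 ± 7.41 CPM (adjusted p = 8.06e-08) and *ARRB1* from a mean of 20.4 CPM to 0.661 CPM (adjusted p = 3.16e-05). The same 4 genes changed in the same direction against liver CD8α-high cells.

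Of 11 chemoattractant receptors tested, 5 rose and 2 fell in lrNK cells against blood. *CXCR6* rose from 1.56 ± 2.00 to 589.4 ± 293.1 CPM (adjusted p = 1.07e-06), *CCR6* from 1.25 ± 1.27 to 14.1 ± 7.46 CPM (adjusted p = 0.0144), and *CX3CR1*, the fractalkine receptor, fell from 642.4 ± 275.8 to 3.03 ± 3.00 CPM (adjusted p = 9.09e-10). *XCR1* had at most 1 count in any CD8α-high library but 9 to 40 counts in each lrNK library (adjusted p = 0.000231 against blood). Between liver CD8α-high cells and blood *CXCR6* was the receptor called by edgeR, where 0.0640% of all genes passed. Its log2 fold change was 4.88 (adjusted p = 0.0360), higher in 5 of 5 pigs. With the block the value was 4.48 and missed the threshold (adjusted p = 0.112). Liver CD8α-high libraries of pigs 1 to 5 held 152.4, 23.1, 46.4, 17.0 and 5.23 CPM of *CXCR6*, the highest in the library that also held the most *EOMES* of its population. DESeq2 called 2 of the 11 receptors there, and its count over all genes is given above. *CXCR4*, a receptor known to be restrained by *RGS1* and named here after its values were seen, was counted at most 9 times in any library. Whether reads of its 3′ end were assigned to the gene was not tested, so few counts do not show that it was unexpressed. Of the 5 genes of S1P receptors and egress tested, 3 fell: *S1PR5* from 486.1 ± 92.4 to 19.6 ± 13.9 CPM (adjusted p = 1.34e-08), *S1PR4* from 135.4 ± 41.2 to 20.6 ± 6.48 CPM (adjusted p = 1.54e-07) and *KLF2* from 733.4 ± 340.0 to 84.5 ± 75.6 CPM (adjusted p = 0.000493). *S1PR1* (log2 fold change -0.72, adjusted p = 0.227) and *S1PR2* (2.16, adjusted p = 0.232) were not called. *S1PR1* averaged 149.3 ± 99.7 CPM in blood, 71.5 ± 42.9 CPM in liver CD8α-high cells and 91.3 ± 30.4 CPM in lrNK cells.

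Against liver CD8α-high cells the same lists were read beside the 14.6% of all genes that passed, 6.96% higher and 7.68% lower. These are edgeR's shares, as are the 24.9% with an unadjusted p under 0.05, and no share is given here for the DESeq2 counts. *GNAI2*, *GNA15* (-1.48, adjusted p = 0.0182), *GNG2* and *AXIN2* fell, as did *S1PR5*, *S1PR4* and *KLF2*. Of the 9 G alpha subunits edgeR called 2 and DESeq2 3, and 5 had an unadjusted p under 0.05. In the fit blocked by pig 3 fell, *GNAS* being the further one (-0.63, adjusted p = 0.0168, against 0.145 without the block). Of the receptors tested 5 rose and 1 fell, with *CCR6* counted 0 times in every liver CD8α-high library and 16 to 47 times in each lrNK library. Among the 6 G alpha regulators and partners edgeR called 0, DESeq2 2, and 2 had an unadjusted p under 0.05. Between liver CD8α-high cells and blood, no gene of these roles other than *CXCR6* was called by edgeR.

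**Figure D4:**
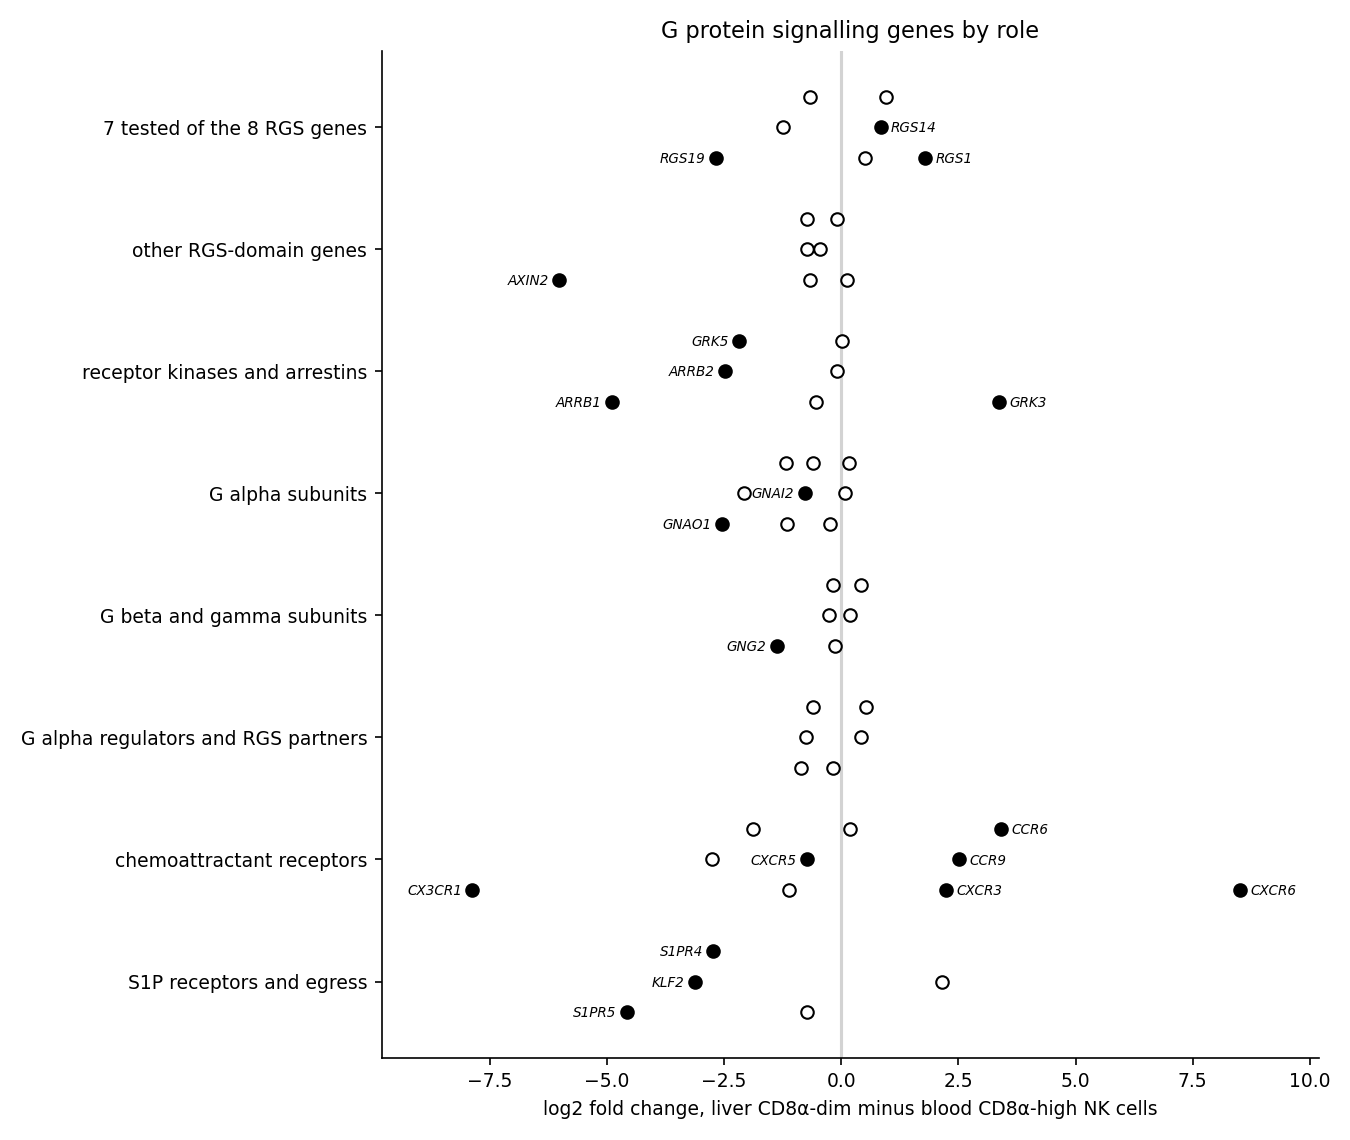
Log2 fold change between lrNK cells and blood for 57 tested genes of G protein signalling, a row per role (the RGS row holds the 7 tested, and *RGS6* is not drawn), with points spread vertically for legibility. Filled points have an adjusted p under 0.05 in edgeR and are named, and *XCR1* is left out because no blood library had more than 3 counts. Called points lie on both sides of 0 among the 7 RGS genes tested, the receptor kinases and arrestins and the chemoattractant receptors, and below 0 among the G protein subunits and the S1P list.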

How the data were processed

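RNA of 3 sorted NK cell populations of 5 pigs was read from the 3′ end of transcripts (QuantSeq kit). Reads were trimmed with QuasR and aligned with Rhisat2 to Sscrofa11.1, and the authors deposited whole-number counts of reads per gene, without normalization. The counter, its strand setting and its treatment of multiply aligned reads were not given in the sources used here, so counts of overlapping genes are uncertain. All columns matched a sample label (0 left over).

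The test was that of edgeR 4.0.16 in R 4.3.3, with TMM scaling, the default filter by population (10939 of 29886 genes), and a quasi-likelihood fit of all 15 libraries. P-values were adjusted by Benjamini-Hochberg over all of these genes, and a gene was called at an adjusted p under 0.05. SE is the log2 fold change divided by the square root of F, and 95% intervals come from the t distribution. The authors used DESeq2, which was an alternative here (version 1.42.0). Log2 CPM for patterns had a prior count of 2, and genes compared had a mean of at least 50 counts. Replicates are separate pigs, and same-numbered libraries come from the same animal per the labels and the paper. Their deviations from population means correlated at 0.107 on average (15 pairs, 8 over 0.1). Pairs from other pigs and other populations averaged -0.0265. That value follows largely from centring on population means and is no separate baseline. Chi-square per degree of freedom between libraries of a population was 9.41 to 46.7, so none was counted as a repeat of another. Library medians were 3749615, 3877028 and 2407859 counts in blood, liver CD8α-high and lrNK cells.

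The genes named are all 8 RGS genes, any other RGS gene that passed the filter, up to 4 called genes with the largest change per list, and the 3 most similar genes per called member of the 8. Marker genes, RGS genes below the filter, *GNAS*, *S1PR1* and *S1PR2* fall outside this rule and were named after their values were seen. Members and lists were chosen with earlier results of these data known. Alternatives were DESeq2, its size factors, other filters, robust dispersion, the block, fits of only the populations compared, and leaving out pigs or libraries. The scripts were tested on simulated counts. Coordinates come from a gene table of Sscrofa11.1 without strand. No gene or promoter sequence was used here. Plots were made in matplotlib 3.10.9 under Python 3.11.15.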

Additional observations from a re-analysis of the deposited data

Results flagged for a closer look

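The 8 RGS genes, *RGS6* and the library totals were checked in each population of 5 libraries for a library far from the others by Dixon's criterion (gap over range above 0.71). Of 30 groups checked 5 stood out. No rate by chance is set beside this, because a library above 0 always stands out where all others are at 0. *RGS16* in liver CD8α-high cells, at 0 throughout, could not stand out. *RGS2* was at 408.0 CPM in the liver CD8α-high library of pig 5, where the others held 74.3 to 143.9 CPM, and the call of *RGS2* between the liver populations was lost without that library (-1.0, adjusted p = 0.227). *RGS19* was at 415.4 CPM in the blood library of pig 1 against 255.2 to 283.4 CPM in the others, and without that library its log2 fold change between lrNK cells and blood was -2.54 (adjusted p = 2.97e-07). The other 3 rest on few counts: *RGS16* at 3.92 CPM in the lrNK library of pig 4 (others 0 to 1.04 CPM) and at 0.340 CPM in blood of pig 5 (others 0), and *RGS6* at 2.75 CPM in the liver CD8α-high library of pig 1 (others 0).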

How the results depend on the processing

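*RGS1*, *RGS14* and *RGS19* kept their direction and their calls against both CD8α-high populations in all 17 alternatives. Over these the log2 fold change against blood was 1.46 to 2.2 for *RGS1*, 0.74 to 0.93 for *RGS14* and -2.93 to -2.49 for *RGS19*. Against liver CD8α-high cells it was 1.33 to 1.87 (adjusted p up to 0.05 after rounding, without pig 5), 0.87 to 1.15 and -2.5 to -2.07. They included the libraries that stood apart: without the lrNK library of pig 3, *RGS1* differed from blood by 1.99, and without the liver CD8α-high library of pig 1 it differed from liver CD8α-high cells by 1.73.

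*RGS2* was lower in lrNK cells than in blood in all 17 alternatives but was called only in some. These were -1.25 without a filter (adjusted p = 0.0160), -1.35 in the blocked fit (adjusted p = 0.00119) and 1 of 10 leave-outs (-1.61 to -0.88). Against liver CD8α-high cells its call was lost with DESeq2 (-1.60, adjusted p = 0.0588), robust dispersion (-1.59, adjusted p = 0.129) and a fit of both populations alone (-1.60, adjusted p = 0.0507), and kept in 3 of 10 leave-outs (-1.79 to -1.0). With the block the change of *RGS2* against liver CD8α-high cells was -1.69 (adjusted p = 0.000160). Its SE in both comparisons was 0.26 with the block and 0.52 without. Within pigs, lrNK cells were below both CD8α-high populations in 5 of 5, and no leave-out was fitted with the block. The cause of the lost calls was not tested.

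Between the CD8α-high populations signs turned for genes that were not called: *RGS1* was -0.05 with the block and -0.14 to 0.44 over leave-outs (-0.14 without pig 1 or pig 4, -0.10 without the blood library of pig 1), *RGS3* -0.09 to 0.38 (-0.09 without pig 1, -0.05 without that library) and *RGS2* -0.25 to 0.91 (-0.18 without pig 5, -0.25 without its liver library). *RGS10* between the liver populations was 0.08 with the block and -0.34 to 0.54 over leave-outs (0.54 without pig 3). *RGS6* was called against blood in 3 of 10 leave-outs (2.69 to 3.66) and against liver CD8α-high cells in 8 of 10 (3.7 to 8.55). It was also lost against blood without the lrNK library of pig 3 (2.69, adjusted p = 0.128) or the blood library of pig 1 (3.05, adjusted p = 0.0933). The value of 8.55, without pig 1 or its liver CD8α-high library, was fitted against libraries all at 0 and depends on the prior count. *RGS16* could be tested only without a filter, at 3.34 against blood (adjusted p = 0.319). Other than *RGS2* and *RGS6* against blood, the block changed no call of an RGS gene.

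The count of genes called between the CD8α-high populations was 25 with DESeq2, 18 without a filter, 4 with robust dispersion, 16 in a fit of both alone and 0 (without pig 2) to 12 (without the lrNK library of pig 3) over leave-outs, against 7. Between the liver populations it was 1051 to 1764 over leave-outs, against 1601, the lowest without pig 5. Leave-outs of the blood library of pig 1, the lrNK library of pig 4 and the liver CD8α-high library of pig 5 were chosen after seeing the data. *RGS10*, *RGS16* and *RGS6* rest on few counts per library.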

Other observations

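*RGS10* was at 0 in all 3 libraries of pig 1 and had 4 to 30 counts in each of the other 12. A count over the whole table, with the minimum of 4 set after this value was seen, found 1 gene of 29886 with this pattern in pig 1, which was *RGS10*, and 0, 0, 1 and 0 genes in pigs 2 to 5. The 3 libraries of pig 1 were prepared from separately sorted populations and together held 9044160 counts, the smallest total of the 5 pigs.

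*RGS14* was highest in pig 1 in each population, *RGS18* in pig 4 in each, and *RGS2* was lowest in pig 1 in each. *RGS19*, in contrast, had a different pig at the top of each population: pig 1 in blood, pig 5 in liver CD8α-high cells and pig 2 in lrNK cells.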
